A study of Mus musculus with 12 samples.

Results

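The genes described here are the secreted and membrane-bound metalloproteinases of the extracellular matrix and their inhibitors: the matrix metalloproteinases (MMPs), the ADAMTS proteases, the ADAMTS-like proteins and the tissue inhibitors of metalloproteinases (TIMPs). They were taken by symbol (Mmp, Adamts or Adamtsl followed by a number, and Timp1 to Timp4) from the whole deposited count table. That gave 51 of the 27179 genes counted, namely 23 MMP, 19 ADAMTS, 5 ADAMTSL and 4 TIMP genes. Messenger RNA came from mouse embryonic fibroblasts, primary connective-tissue cells of wild-type C57BL/6 E13.5 embryos, grown at 3% oxygen. The cells were given WM-8014, which the labels call a MYST inhibitor (MYST proteins are histone acetyltransferases), or WM-2474, its inactive control, each at 10 µM and for either 96 or 240 h. Every group held cultures 5, 6 and 7, so there were 12 libraries, 3 per group, and no untreated cells. The series calls the cultures biological replicates, and the labels do not say from which embryos they came.

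MMPs cut collagens, gelatin and other matrix proteins with a zinc ion at the active site, and most are secreted as inactive precursors. ADAMTS proteases belong to the same large clan: some trim the ends of procollagens, others cut aggrecan and versican, and the ADAMTS-like proteins share their binding modules but lack the protease domain. TIMPs bind the active site and block it, and Timp3, which stays bound to the matrix, also blocks several ADAMTS proteases. In fibroblasts these genes take part in the maturation and removal of the matrix.

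Library totals ran from 10147466 to 45903190 reads. Values below are in CPM, a gene's reads for every 1000000 reads of the library total scaled by TMM, a normalization that sets the bulk of genes level, and triplets are in the order of cultures 5, 6 and 7. A gene passed where its p from edgeR's quasi-likelihood test, adjusted by Benjamini-Hochberg over all 14136 genes tested, lay under 0.05. All 12 libraries are labelled female, yet each held Y-linked transcripts (Ddx3y at 96.3 to 124 CPM) and at most 4 reads of Xist. At 96 h, cultures 6 and 7 given WM-2474 stood apart in some genes, such as Misp3 at 0.724 to 0.943 CPM against 79.9 to 285 CPM in the other 10. Calls between the compounds and interactions that change without both are given beside each gene, and leaving both out leaves 1 library in that group, assumed to vary like the others. A culture named without a group was left out of all 4 groups, and a range beside an adjusted p is the lowest and the highest over all alternatives run.

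Promoter sequences are shown first to set the 3 most abundant genes of the family beside the MMP cluster on chromosome 9, most of which was too low to test. Windows of the 250 bases before the transcription start came from RefSeq (GRCm38.p6) and were found for 36 of the 51 genes, 39 windows in all. The first 3 sequences belong to the 3 genes with the highest level per kilobase, Timp2 (chr11:118355412-118355661, minus strand), Timp3 (chr10:86300162-86300411, plus strand) and Mmp14 (chr14:54431348-54431597, plus strand). The last 3 belong to genes of that cluster, namely Mmp13 (chr9:7272264-7272513), Mmp3 (chr9:7445572-7445821) and Mmp10 (chr9:7502092-7502341), all on the plus strand. Each is written 5′ to 3′ on the gene's strand. Capitals mark the letters of a GC box (GGGCGG), of an AP-1 site (TGANTCA) or of a TATA box (TATAAA), searched on both strands; neither the GC box nor the TATA box letters occur inside another of the 3 motifs.
Timp2: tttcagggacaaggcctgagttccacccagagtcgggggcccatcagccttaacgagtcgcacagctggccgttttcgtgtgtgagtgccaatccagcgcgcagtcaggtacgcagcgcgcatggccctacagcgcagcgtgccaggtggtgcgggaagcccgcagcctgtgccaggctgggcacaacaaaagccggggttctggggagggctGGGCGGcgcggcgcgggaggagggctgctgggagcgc
Timp3: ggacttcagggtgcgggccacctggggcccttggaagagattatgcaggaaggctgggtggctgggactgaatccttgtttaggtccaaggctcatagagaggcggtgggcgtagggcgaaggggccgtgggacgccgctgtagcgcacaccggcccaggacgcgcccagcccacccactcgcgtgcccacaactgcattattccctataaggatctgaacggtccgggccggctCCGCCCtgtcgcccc
Mmp14: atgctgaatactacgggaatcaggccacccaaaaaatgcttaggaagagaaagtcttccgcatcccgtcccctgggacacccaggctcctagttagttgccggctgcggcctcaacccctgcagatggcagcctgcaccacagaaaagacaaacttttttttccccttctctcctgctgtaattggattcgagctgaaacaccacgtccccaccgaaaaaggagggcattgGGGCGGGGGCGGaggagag
Mmp13: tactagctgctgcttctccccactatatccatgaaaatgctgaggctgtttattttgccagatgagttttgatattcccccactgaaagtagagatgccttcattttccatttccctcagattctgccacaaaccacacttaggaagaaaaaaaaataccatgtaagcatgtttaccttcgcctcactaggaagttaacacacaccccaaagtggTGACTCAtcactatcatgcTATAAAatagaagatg
Mmp3: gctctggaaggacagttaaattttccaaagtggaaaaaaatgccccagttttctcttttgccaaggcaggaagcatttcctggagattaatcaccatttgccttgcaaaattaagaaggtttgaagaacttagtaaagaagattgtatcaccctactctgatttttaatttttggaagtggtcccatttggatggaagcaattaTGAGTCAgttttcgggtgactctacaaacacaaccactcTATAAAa
Mmp10: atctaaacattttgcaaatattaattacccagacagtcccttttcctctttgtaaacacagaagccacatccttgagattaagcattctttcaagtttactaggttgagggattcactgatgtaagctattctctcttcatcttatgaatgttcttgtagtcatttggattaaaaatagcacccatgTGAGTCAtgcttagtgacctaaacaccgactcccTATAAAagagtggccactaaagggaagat

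The windows of Timp2, Timp3 and Mmp14 held 21, 18 and 10 CpG dinucleotides, and each of the 3 cluster windows held 1. Over all 22271 windows of counted genes, 42.4% held a GC box, 11.4% a TATA box and 6.35% an AP-1 match. Among the 21 windows of family members abundant enough to test, 81% held a GC box, 14.3% a TATA box and 4.76% an AP-1 match, the last being the single window of Mmp13. Among the 18 windows of members too low to test, 16.7% held a GC box, 38.9% a TATA box and 38.9% an AP-1 match. The 7 AP-1 windows among them all belong to the chromosome 9 cluster. The median CpG count was 17 in the windows of tested members, 1 in those too low to test and 9 over all windows. Windows of all genes tested, 13638 in number, had a median of 15 CpG dinucleotides, and 57.4% held a GC box, 6.55% a TATA box and 4.58% an AP-1 match. Low members outside the cluster could have many CpG dinucleotides, with 33 for Mmp24, 17 for Mmp25 and 15 for Adamts18, while the abundant Timp1 had 6. These shares are descriptions of letters in a fixed window, not of binding.

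**Figure D1:**
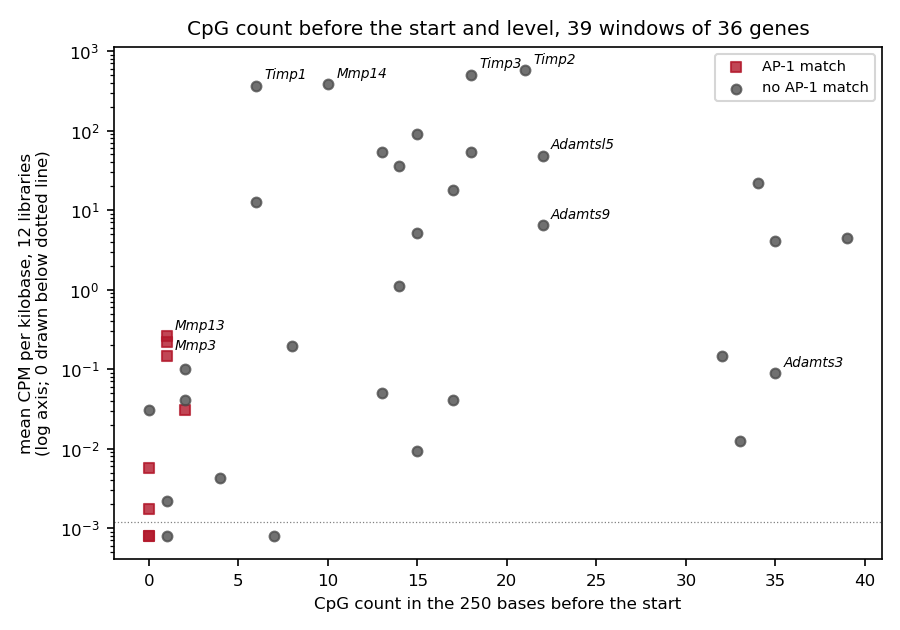
CpG count in the 250 bases before the start (horizontal axis) and mean level over the 12 libraries in CPM per kilobase (vertical log axis) for 39 windows of 36 genes, with squares where the window holds an AP-1 match. The squares lie at 0 to 2 CpG dinucleotides and, with Mmp13 the highest, below 1 CPM per kilobase, while Timp2, Timp3 and Mmp14 lie above 100 CPM per kilobase with 10 to 21 CpG dinucleotides.

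Inhibitors and a single membrane protease made up most of the family's RNA. Per kilobase of gene length, a scale on which genes can be set side by side, the mean over 12 libraries was 573 CPM for Timp2, 504 for Timp3, 384 for Mmp14 and 369 for Timp1. The next genes were Adamts1 at 90.8, the gelatinase gene Mmp2 at 88.8, Mmp23 at 53.7, Adamts5 at 50.6, Adamtsl5 at 48.4 and Mmp11 at 35.7 CPM per kilobase. The ranges of these 4 genes over the 12 libraries overlapped, but within each group every Timp2 library lay above every Mmp14 and Timp1 library. Timp3 lay below Mmp14 at 96 h and above it at 240 h in either compound. The lowest library of each was above the highest of Adamts1. Reads of the 51 genes took 0.572 to 0.586% of a WM-2474 96 h library and 0.667 to 0.689% with WM-8014. At 240 h they took 0.726 to 0.753% with WM-2474 and 1.04 to 1.13% with WM-8014.

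A filter on low counts, which asks for about 0.613 CPM in at least 3 libraries, left 32 members to test: 11 MMP, 13 ADAMTS, 5 ADAMTSL and 3 TIMP genes. The 19 too low to measure held few reads over the 12 libraries together. Mmp1a, Mmp7 and Mmp21 had 0 reads of 235374001, which allows up to 0.0127 CPM. Mmp20 had 1 read, Mmp8 and Adamts13 had 2 each, Mmp1b and Adamts19 had 3 each, Adamts18 had 12, Mmp24 had 16 and Mmp27 had 18. Mmp12 and Adamts8 had 23 reads each, Timp4 had 28, Mmp25 had 38, Mmp3 had 55, Adamts17 had 70, and Mmp10 and Adamts16 had 91 each. None of these 19 exceeded 0.842 CPM in any library. Mmp3, the stromelysin gene that fibroblasts are known for in inflamed tissue, stood at 0.186, 0.579 and 0.205 CPM with WM-2474 and 0.272, 0.0682 and 0.406 CPM with WM-8014 at 96 h. At 240 h Mmp3 stood at 0.214, 0.178 and 0.198 CPM with WM-2474 and 0.504, 0.138 and 0.173 CPM with WM-8014, from 1 to 10 reads a library, and its groups overlapped at both times. The cluster at chr9:7272514-7699585 (mm10) holds 10 of the MMP genes (Mmp13, Mmp12, Mmp1b, Mmp3, Mmp1a, Mmp10, Mmp8, Mmp27, Mmp20 and Mmp7), and of these Mmp13 alone could be tested. Mmp1a and Mmp1b are close copies between which reads may not be separated.

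**Figure D2:**
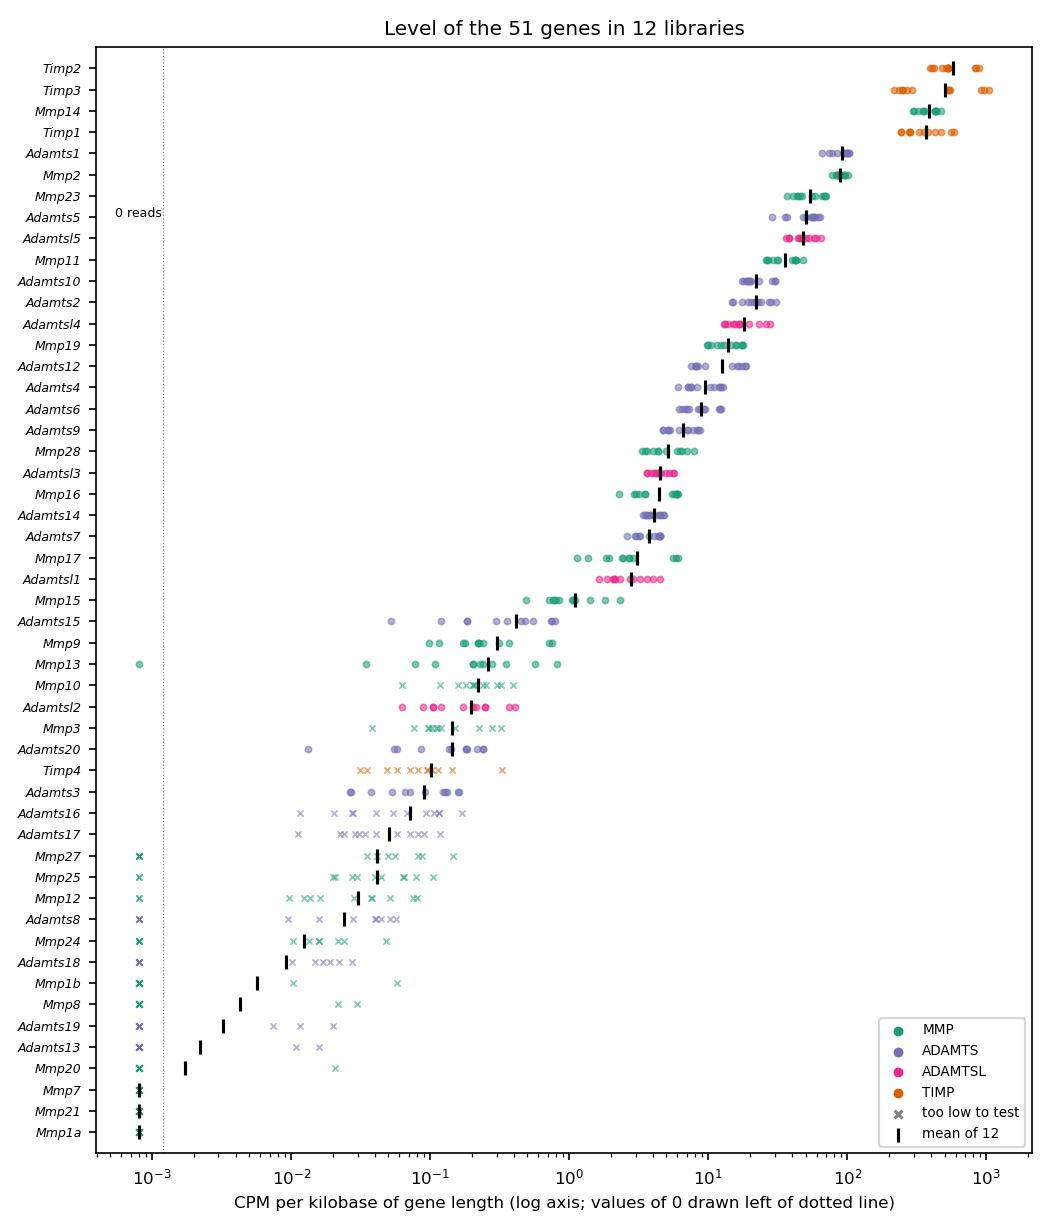
Level of each of the 51 genes in CPM per kilobase (log axis), with a point for every library, a cross where the gene was too low to test and a bar at the mean of 12. Timp2, Timp3, Mmp14 and Timp1 have means of 369 to 573 CPM per kilobase, and Mmp1a, Mmp21 and Mmp7 lie at 0 reads.

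At 96 h, 10 of the 32 tested members differed between the compounds, 7 of them higher with WM-8014 (Timp2, Timp3, Mmp11, Mmp14, Mmp19, Adamts2 and Adamtsl5) and 3 lower (Mmp17, Adamts6 and Adamts9). That is 31.2% of the members, where 22.8% of all genes tested passed (10.9% higher and 11.8% lower). With culture as a block over all 12 libraries, 13 members passed at 96 h (10 higher and 3 lower) where 25.4% of all genes did. The 3 added were Timp1, Adamts5 and Adamtsl4. That fit pairs the 96 h libraries, and it also assumes that the culture effects were the same at 240 h. At 240 h, 24 members passed, 14 higher and 10 lower. That is 75%, where 42.6% of all genes passed (21.2% higher and 21.4% lower). The median log2 fold change of the tested members was 0.06 at either time, and over all genes tested it was 6.3e-05 and 0.00506. The filter let in Mmp9, Mmp13, Adamts3, Adamts15, Adamts20 and Adamtsl2 on 5 to 11 libraries above its limit, so shares of tested members are not shares of the family. In these bulk samples, fewer cells of a type and less RNA per cell cannot be told apart.

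Of the 10 genes called at 96 h, 8 were called in the same direction at 240 h and none in the opposite one. Another 16 genes were called at 240 h and not at 96 h, among them the 3 that the block adds at 96 h, and 6 at neither time (Mmp2, Mmp13, Mmp16, Adamts14, Adamtsl1 and Adamtsl2). The difference between the 2 effects was tested as an interaction of compound and time, in which 9 members passed, 7 with a higher effect at 240 h and 2 with a lower one. That is 28.1% of the members, where 10.7% of all genes passed (5.15% higher and 5.53% lower). With culture as a block, 14 members passed the interaction (9 higher and 5 lower), where 13% of all genes did. Leaving out the 96 h controls of cultures 6 and 7 keeps only a single library in that group. Counts from that fit are therefore not set beside these.

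**Figure D3:**
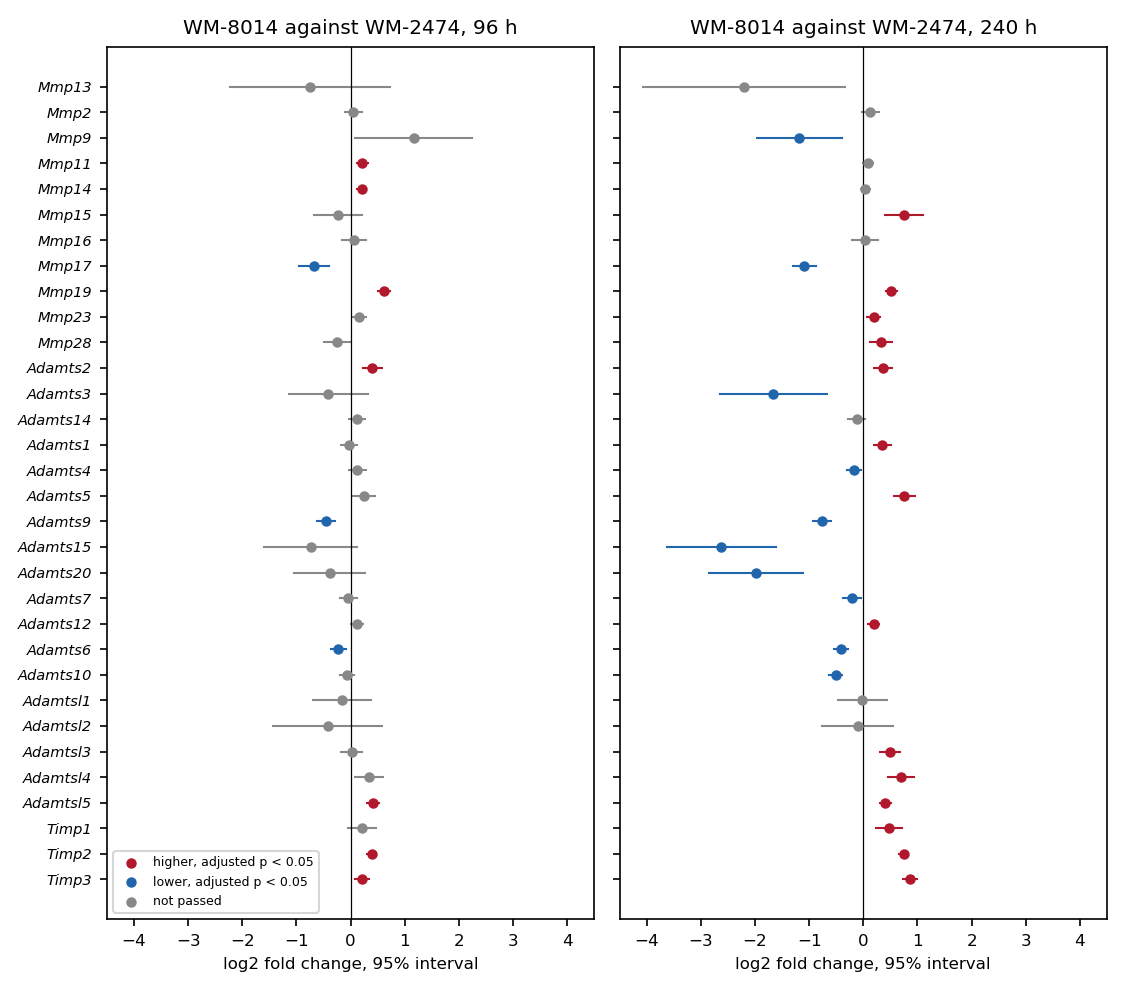
Log2 fold changes of WM-8014 against WM-2474 for the 32 tested members at 96 h (left) and 240 h (right), with 95% intervals from edgeR, in red where higher and blue where lower at an adjusted p under 0.05. At 96 h 10 genes are coloured and at 240 h 24, and the widest intervals belong to genes of few reads such as Mmp13, Mmp9, Adamts15 and Adamts20.

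At 240 h, Timp3 and Timp2 gave the largest differences of the family in CPM. Timp3 (chr10:86300412-86349505) stood at 1019, 1148 and 1103 CPM with WM-2474 and at 1174, 1362 and 1258 CPM with WM-8014 at 96 h. At 240 h Timp3 was at 2462, 2522 and 2549 CPM with WM-2474 and at 4262, 4513 and 4923 CPM with WM-8014. The groups did not overlap at either time, narrowly at 96 h and by a wide gap at 240 h. Timp3 was 1.16-fold higher with WM-8014 at 96 h (log2 0.21, SE 0.0596, adjusted p = 0.0183) and 1.82-fold higher at 240 h (log2 0.86, SE 0.0594, adjusted p = 2.47e-08). The 2 effects differed by 0.65 on the log2 scale (SE 0.0839, adjusted p = 0.000163). Adjusted p at 96 h ranged from 0.000275 to 0.0914 over the alternatives. It missed the threshold without the WM-2474 library of culture 5 (0.0641), without WM-8014 96 h culture 6 (0.066) or 7 (0.0645), without culture 6 (0.0546) or 7 (0.0859) in all groups, and with no filter on low counts (0.0914). Exons of Timp3 overlap 1733 bases of Syn3 on the opposite strand, and Syn3 was at 0.693 to 1.39 CPM.

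Timp2 (chr11:118301061-118355411), whose protein also takes part in activating pro-MMP2 at the cell surface, had the smallest adjusted p of the family in the comparisons of compounds. It was at 1521, 1412 and 1466 CPM with WM-2474 and at 1933, 1929 and 1917 CPM with WM-8014 at 96 h. At 240 h Timp2 was at 1906, 1742 and 1849 CPM with WM-2474 and at 3039, 2982 and 3210 CPM with WM-8014. The 3 WM-8014 libraries lay above the 3 WM-2474 libraries at each time. The fold was 1.31 at 96 h (log2 0.39, SE 0.0394, adjusted p = 9.57e-07) and 1.68 at 240 h (log2 0.75, SE 0.0394, adjusted p = 6.43e-12). The interaction was 0.35 (SE 0.0556, adjusted p = 0.000201). All of these calls for Timp2 passed in each of the alternatives run.

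Timp1 (chrX:20870166-20874737), the inhibitor best known as induced by growth factors and cytokines, was at 217, 248 and 217 CPM with WM-2474 and 249, 293 and 250 CPM with WM-8014 at 96 h. At 240 h Timp1 was at 314, 378 and 338 CPM with WM-2474 and 493, 523 and 417 CPM with WM-8014. Its groups did not overlap at either time, and culture 6 was the highest in each group. At 96 h the log2 difference was 0.22 (95% interval -0.04 to 0.47, adjusted p = 0.211), and it passed with culture as a block (0.21, adjusted p = 0.00187, range 0.00187 to 0.479), the fit that the pairing of cultures at 96 h calls for. Timp1 was 1.39-fold higher at 240 h (log2 0.48, SE 0.109, adjusted p = 0.00702), which missed the threshold without culture 5 (0.38, adjusted p = 0.126, range 3.15e-08 to 0.126). The interaction did not pass for Timp1 (0.26, 95% interval -0.10 to 0.61, adjusted p = 0.382), except with culture as a block (0.26, adjusted p = 0.00918, range 0.00918 to 0.785).

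**Figure D4:**
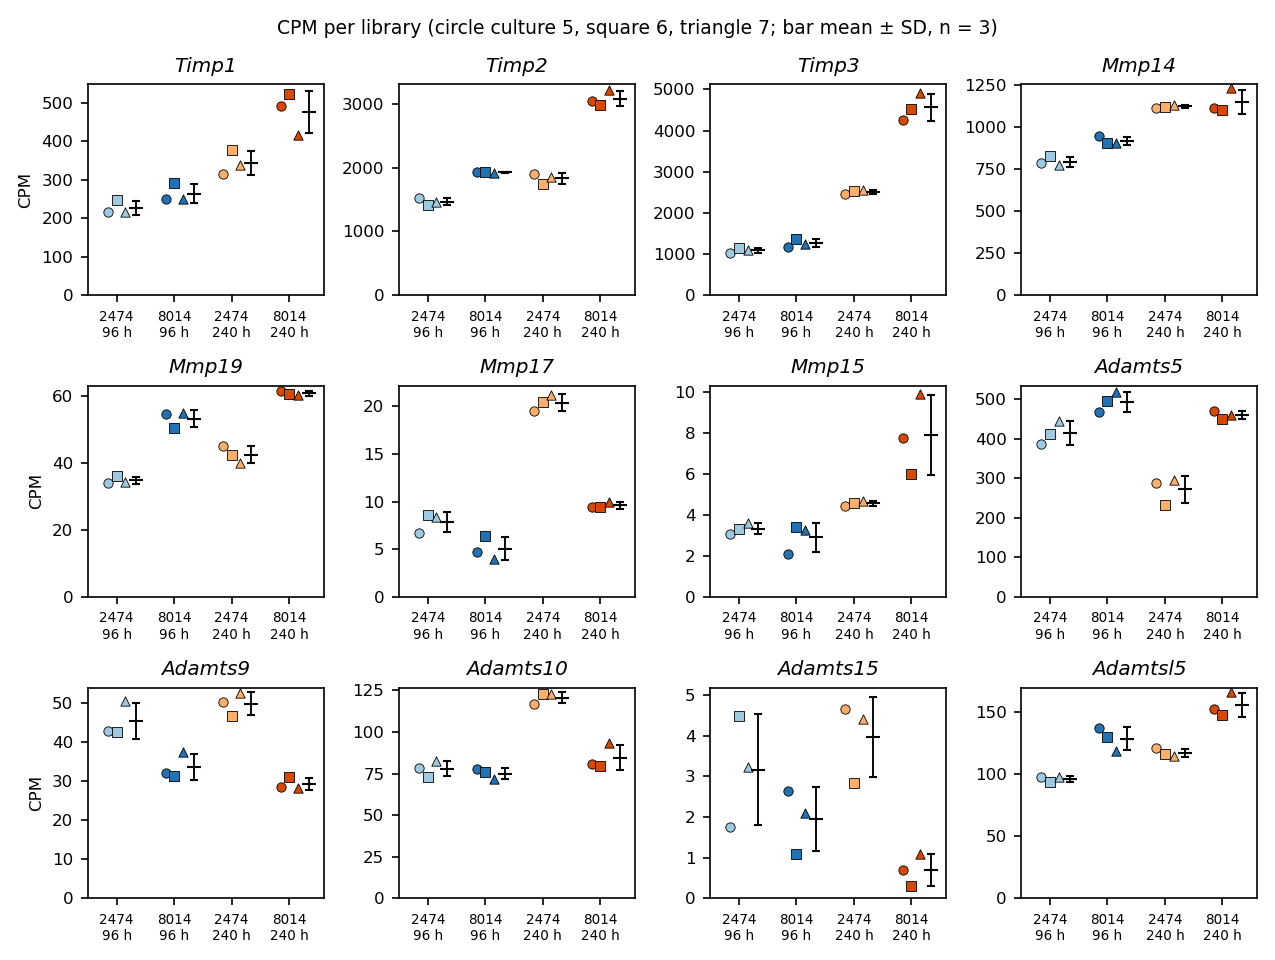
CPM of 12 members in every library (circles culture 5, squares culture 6, triangles culture 7), with the mean and SD of each group of 3 beside the points. Timp1, Timp2, Timp3, Mmp19, Adamts5 and Adamtsl5 separate the compounds upward at both times, and Mmp17 and Adamts9 do so downward. Mmp14 separates them at 96 h and overlaps at 240 h.

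Collagenases and gelatinases differed little or were too scarce to resolve. Mmp13, the one collagenase gene that could be tested, stood at 0.0928, 2.17 and 0.943 CPM with WM-2474 and 0.543, 0.614 and 0.744 CPM with WM-8014 at 96 h, and the groups overlapped. At 240 h it stood at 0.643, 1.51 and 0.545 CPM with WM-2474, from 11 to 34 reads, and at 0, 0.207 and 0.289 CPM with WM-8014, from 0 to 6 reads. Every WM-8014 library was below every WM-2474 library at 240 h, but the difference of -2.21 (95% interval -4.07 to -0.35) did not pass (adjusted p = 0.0556, with 0.00142 to 0.291 over the alternatives). It did pass with culture as a block (-2.40, 0.00142), without WM-2474 96 h culture 5 (0.00857) or 6 (0.0143), without both of cultures 6 and 7 (0.00285), without WM-2474 240 h culture 7 (0.046), without culture 5 (0.0267), in DESeq2 (-2.28, 0.00992) and in a fit of the 240 h groups alone (0.0106). The interaction of -1.46 did not pass (adjusted p = 0.506), except without the 96 h controls of cultures 6 and 7 (-4.88, adjusted p = 0.039).

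Mmp2, the constitutive gelatinase of fibroblasts, was at 234, 290 and 254 CPM with WM-2474 and 254, 286 and 269 CPM with WM-8014 at 96 h. At 240 h Mmp2 was at 265, 265 and 260 CPM against 267, 287 and 308 CPM. The WM-8014 libraries were all higher at 240 h, by a small margin. The log2 differences were 0.05 (95% interval -0.11 to 0.22, adjusted p = 0.663) and 0.13 (-0.03 to 0.29, adjusted p = 0.182), and that at 240 h passed in a fit of the 240 h groups alone (0.0376), without culture 5 (0.17, adjusted p = 0.0389) and without the 96 h controls of cultures 6 and 7 (0.13, adjusted p = 0.0472, range 0.0376 to 0.676). Mmp9, the inducible gelatinase of white blood cells, rested on 5 to 53 reads a library. It was at 0.557, 0.362 and 0.307 CPM with WM-2474 and 0.747, 1.16 and 0.541 CPM with WM-8014 at 96 h, and at 0.697, 2.36 and 2.23 against 0.706, 0.692 and 0.981 CPM at 240 h. The groups overlapped at both times, and cultures 6 and 7 with WM-2474 at 240 h stood above the other 10 libraries. The log2 difference of Mmp9 was 1.17 at 96 h (adjusted p = 0.114), -1.18 at 240 h (SE 0.372, adjusted p = 0.0154) and -2.35 for the interaction (SE 0.639, adjusted p = 0.0226). The call at 240 h did not hold without WM-2474 240 h culture 6 (-0.91, adjusted p = 0.0902) or 7 (0.0698), WM-8014 240 h culture 6 (-1.03, 0.0907), culture 6 (-0.76, 0.274) or culture 7 (-1.17, 0.0958), range 0.000169 to 0.274. The interaction did not hold without the WM-2474 library of culture 7 at 96 h (-2.03, adjusted p = 0.121) or 240 h (-2.17, 0.0515), the WM-8014 library of culture 6 at 96 h (-2.01, 0.0938) or 240 h (-2.19, 0.062), culture 6 (-1.59, 0.341), culture 7 (-2.25, 0.175), or the 96 h controls of cultures 6 and 7 (-1.72, 0.382, the highest over the alternatives), nor with every library thinned to the lowest depth (-1.67, 0.2). At 96 h Mmp9 passed without WM-2474 240 h culture 5 (1.17, adjusted p = 0.0291, range 0.0291 to 0.789).

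Mmp11, or stromelysin-3, is made by stromal cells and is activated inside the cell by furin. It was at 59.2, 58.5 and 60.2 CPM with WM-2474 and 70.8, 66 and 70.3 CPM with WM-8014 at 96 h, and at 94.3, 90.4 and 95.5 against 95.1, 95.8 and 107 CPM at 240 h. The compounds separated at 96 h and overlapped at 240 h. Mmp11 was 1.16-fold higher at 96 h (log2 0.22, SE 0.0491, adjusted p = 0.0031), a call lost without the 96 h controls of cultures 6 and 7 (0.22, adjusted p = 0.112, range 0.0006 to 0.112). At 240 h the difference was 0.09 (adjusted p = 0.115), and the interaction did not pass (-0.13, adjusted p = 0.273). Its exons overlap 155 bases of Chchd10 on the opposite strand, which was at 4.34 to 16.3 CPM and itself higher with WM-8014 at 96 h (log2 0.44, adjusted p = 0.0287).

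Of the membrane-type MMPs, which act at the cell surface, 4 of 6 could be tested, and at each time 1 was higher and 1 lower. That is 50% of those tested, where 22.8% and 42.6% of all genes passed at 96 and 240 h. Mmp14 (chr14:54431598-54442456), the main collagen-cutting enzyme on fibroblasts and the activator of pro-MMP2, was at 784, 830 and 773 CPM with WM-2474 and 946, 903 and 905 CPM with WM-8014 at 96 h. At 240 h Mmp14 was at 1117, 1121 and 1135 CPM against 1116, 1105 and 1231 CPM. The compounds separated at 96 h, while at 240 h culture 7 with WM-8014 was the highest and the other 5 libraries lay together. Mmp14 was 1.15-fold higher at 96 h (log2 0.21, SE 0.0403, adjusted p = 0.00085) and differed by 0.03 at 240 h (95% interval -0.05 to 0.12, adjusted p = 0.531). The interaction just missed (-0.17, SE 0.0569, adjusted p = 0.0549) and passed with culture as a block (0.0396), without WM-2474 96 h culture 6 (0.0333), WM-8014 240 h culture 7 (0.00492) or culture 7 (0.0483), with no filter (0.0238) and with every library thinned (0.0469), range 0.00492 to 0.367.

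Mmp17 (chr5:129584151-129611099), a membrane-type MMP held by a lipid anchor, had the smallest adjusted p of the MMP genes that were lower. It was at 6.68, 8.54 and 8.4 CPM with WM-2474 and 4.75, 6.41 and 3.99 CPM with WM-8014 at 96 h. At 240 h Mmp17 was at 19.5, 20.4 and 21.2 CPM with WM-2474 and 9.38, 9.4 and 9.98 CPM with WM-8014. The groups did not overlap at either time, and the gap was far wider at 240 h. It was 1.6-fold lower at 96 h (log2 -0.67, SE 0.135, adjusted p = 0.00107) and 2.12-fold lower at 240 h (log2 -1.09, SE 0.104, adjusted p = 3.22e-08). The 96 h call was lost without culture 7 (-0.46, adjusted p = 0.0879), with every library thinned to the lowest depth (-0.34, 0.329) and without the 96 h controls of cultures 6 and 7 (-0.40, 0.316), range 3.37e-05 to 0.329. The interaction was -0.41 (adjusted p = 0.145), and it passed without WM-8014 96 h culture 7 (-0.56, adjusted p = 0.0455, range 0.0455 to 0.693).

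Mmp15, another membrane-type MMP, was at 3.06, 3.33 and 3.63 CPM with WM-2474 and 2.11, 3.41 and 3.25 CPM with WM-8014 at 96 h. At 240 h Mmp15 was at 4.45, 4.58 and 4.7 CPM with WM-2474 and 7.77, 6.02 and 9.93 CPM with WM-8014, with no overlap and a wide spread among the WM-8014 libraries. Mmp15 differed by -0.24 at 96 h (adjusted p = 0.461) and was 1.69-fold higher at 240 h (log2 0.76, SE 0.166, adjusted p = 0.000938). The interaction of 0.99 (SE 0.267, adjusted p = 0.0194) was lost without WM-2474 96 h culture 7 (0.89, adjusted p = 0.101), WM-8014 96 h culture 5 (0.80, 0.0655), culture 5 (0.81, 0.174), culture 7 (0.77, 0.187), and the 96 h controls of cultures 6 and 7 (0.82, 0.351), and with every library thinned (0.119), range 0.00203 to 0.351. Mmp16 did not pass at either time (0.07, 95% interval -0.15 to 0.28, and 0.03, -0.21 to 0.28), at 25 to 27.6 CPM at 96 h and 10.4 to 16.1 CPM at 240 h. Mmp24 and Mmp25 were too low.

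The other MMP genes that could be tested, Mmp19, Mmp23 and Mmp28, were all higher at 240 h. At that time 42.6% of all genes passed (21.2% higher). Mmp19 (chr10:128790910-128800827), a secreted protease of basement membrane proteins, was at 34, 36 and 34.3 CPM with WM-2474 and 54.5, 50.3 and 54.8 CPM with WM-8014 at 96 h. At 240 h Mmp19 was at 45, 42.5 and 39.9 CPM against 61.5, 60.5 and 60.2 CPM. The compounds separated widely at both times. Mmp19 was 1.53-fold higher at 96 h (log2 0.62, SE 0.0534, adjusted p = 1.78e-07) and 1.43-fold higher at 240 h (log2 0.52, SE 0.0505, adjusted p = 4.04e-08), and both calls passed in each alternative run. The interaction did not pass (-0.10, 95% interval -0.25 to 0.05). Exons of Mmp19 overlap 789 bases of Tmem198b on the opposite strand, which stood at 36.4 to 43.3 CPM and did not differ beyond its error (log2 -0.02 and -0.06, adjusted p = 0.862 and 0.427).

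Mmp23, an MMP anchored by its amino-terminal end, was at 52.6, 63.2 and 58 CPM with WM-2474 and 67.2, 64.9 and 62.8 CPM with WM-8014 at 96 h, where the groups overlapped. At 240 h Mmp23 was at 94.2, 84.5 and 80 against 99.2, 96.7 and 100 CPM, just apart. The log2 difference was 0.16 at 96 h (adjusted p = 0.0696) and 0.19 at 240 h (SE 0.0572, adjusted p = 0.0101), the latter lost without WM-2474 240 h culture 7 (0.14, adjusted p = 0.0635) or without culture 7 (0.13, 0.176), range 0.000766 to 0.176. At 96 h it passed without WM-2474 96 h culture 6 (0.22, adjusted p = 0.0208), without cultures 6 and 7 of that group (0.30, 0.0437), and without WM-2474 240 h culture 5 (0.0309) or 7 (0.0497), and in a fit of the 96 h groups alone (0.0484), range 0.0208 to 0.373. Mmp28, or epilysin, was at 10.1, 9.98 and 9.22 CPM with WM-2474 and 8.42, 8.12 and 7.71 CPM with WM-8014 at 96 h. At 240 h Mmp28 was at 13.7, 11.4 and 14.4 CPM against 16.2, 14.9 and 18.3 CPM. So the WM-8014 libraries were all lower at 96 h and all higher at 240 h. The differences were -0.25 (adjusted p = 0.119) and 0.32 (SE 0.0957, adjusted p = 0.00917), and the interaction was 0.57 (SE 0.149, adjusted p = 0.0143). The 240 h call was lost without the WM-2474 library of culture 6 (0.23, adjusted p = 0.0791) or the WM-8014 library of culture 7 (0.24, 0.0724), and with every library thinned (0.25, 0.166), range 0.00362 to 0.166, and the interaction without culture 5 (0.0769), 6 (0.0712) or 7 (0.0636), or without the 96 h controls of cultures 6 and 7 (0.0997), range 0.00493 to 0.0997. Its exons overlap 466 bases of 1700020L24Rik on the opposite strand, at 3.11 to 7.56 CPM.

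The ADAMTS proteases moved in both directions. Of the 3 procollagen N-proteinases, which cut the amino-terminal propeptides off fibrillar collagens, Adamts2 was higher at both times and Adamts3 lower at 240 h. Adamts2 was at 55.9, 65.7 and 55.3 CPM with WM-2474 and 79.1, 81.9 and 71.6 CPM with WM-8014 at 96 h. At 240 h Adamts2 was at 85.5, 89.6 and 75.4 CPM against 106, 114 and 103 CPM, and the groups were apart at both times. It was 1.32-fold higher at 96 h (log2 0.40, SE 0.0828, adjusted p = 0.00409) and 1.29-fold higher at 240 h (log2 0.37, SE 0.0773, adjusted p = 0.00191). Both calls were lost without culture 5 (0.36, adjusted p = 0.135, and 0.39, adjusted p = 0.0518), the highest values over the alternatives. Adamts3 was at 1.21, 0.506 and 1.23 CPM with WM-2474 and 0.951, 0.409 and 1.01 CPM with WM-8014 at 96 h, and at 0.697, 0.978 and 0.545 against 0.202, 0.207 and 0.289 CPM at 240 h. Its groups overlapped at 96 h and were apart at 240 h, where WM-8014 libraries held 2 to 6 reads. Adamts3 differed by -0.41 at 96 h (adjusted p = 0.44) and was 3.17-fold lower at 240 h (log2 -1.66, SE 0.475, adjusted p = 0.00709), lost without WM-8014 240 h culture 6 (-1.52, adjusted p = 0.0514) or culture 6 (-1.25, 0.093), range 0.003 to 0.093. Adamts14 did not pass (0.13, 95% interval -0.02 to 0.27, and -0.12, -0.27 to 0.03) at 17.6 to 25 CPM.

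The proteoglycanases, which cut aggrecan, versican and related proteins, split in direction at 240 h: of 6 tested, 2 were higher and 4 lower. So all those tested passed at 240 h, where 42.6% of all genes did (21.2% higher and 21.4% lower). Adamts5 (chr16:85858157-85901125), the main aggrecanase of mouse cartilage, was at 387, 412 and 446 CPM with WM-2474 and 467, 495 and 519 CPM with WM-8014 at 96 h. At 240 h Adamts5 was at 288, 233 and 296 CPM with WM-2474 and 471, 450 and 460 CPM with WM-8014. The WM-2474 240 h libraries stood below the other 9, and the compounds were apart at both times. The log2 difference was 0.25 at 96 h (SE 0.0866, adjusted p = 0.0681), which passed with culture as a block (0.25, adjusted p = 0.033), in DESeq2 (0.00622), in a fit of the 96 h groups alone (0.00491), and without WM-2474 240 h culture 6 (0.00093) or 7 (0.0474) or culture 6 (0.0203), range 0.00093 to 0.209. Adamts5 was 1.69-fold higher at 240 h (log2 0.76, SE 0.0873, adjusted p = 6.81e-05). The interaction of 0.51 (SE 0.123, adjusted p = 0.0278) missed the threshold without WM-2474 96 h culture 6 (0.0574) or 7 (0.0532) or both (0.185), WM-8014 96 h culture 5 (0.0652) or 6 (0.0642), WM-8014 240 h culture 5 (0.0636), 6 (0.0552) or 7 (0.0599), and culture 5 (0.112) or 7 (0.0797), and with no filter (0.0566), range 2.15e-05 to 0.185.

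Adamts1 (chr16:85793827-85803113), a versican-cutting protease whose gene lies beside that of Adamts5, was at 506, 458 and 498 CPM with WM-2474 and 489, 460 and 487 CPM with WM-8014 at 96 h. At 240 h Adamts1 was at 380, 323 and 360 CPM against 466, 413 and 482 CPM. The groups overlapped at 96 h and were apart at 240 h, with the WM-2474 240 h libraries the lowest of all. The difference was -0.03 at 96 h (95% interval -0.17 to 0.12, adjusted p = 0.828) and 0.35 at 240 h (1.28-fold, SE 0.0679, adjusted p = 0.00111), the latter lost without culture 7 (0.32, adjusted p = 0.0547, the highest over the alternatives). The interaction of 0.38 (SE 0.0959, adjusted p = 0.025) was lost without WM-2474 96 h culture 5 (0.0534) or 7 (0.0617) or of both 6 and 7 (0.056), WM-2474 240 h culture 7 (0.0507), WM-8014 240 h culture 5 (0.0585), WM-8014 96 h culture 6 (0.0645) or 7 (0.0581), and culture 5 (0.0923) or 7 (0.262), and with no filter (0.0615), range 5.23e-06 to 0.262.

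Adamts9, a protease of versican and aggrecan active in development, was at 42.8, 42.5 and 50.5 CPM with WM-2474 and 31.9, 31.2 and 37.3 CPM with WM-8014 at 96 h. At 240 h Adamts9 was at 50.2, 46.7 and 52.4 CPM against 28.3, 30.9 and 28.3 CPM. The groups were apart at both times. Adamts9 was 1.38-fold lower at 96 h (log2 -0.46, SE 0.0788, adjusted p = 0.000448) and 1.69-fold lower at 240 h (log2 -0.76, SE 0.0775, adjusted p = 4.02e-07). The 96 h call was lost without the 96 h controls of cultures 6 and 7 (-0.36, adjusted p = 0.0514, range 1.35e-05 to 0.0514). The interaction was -0.29 (adjusted p = 0.106), and it passed with culture as a block (-0.30, adjusted p = 0.0262) and without WM-2474 96 h culture 7 (-0.41, adjusted p = 0.0178, range 0.0178 to 0.364). Exons of Adamts9 overlap 1381 bases of A730049H05Rik on the opposite strand, at 0.546 to 2.58 CPM.

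Of the calls between the compounds at a single time, the 2 largest fold changes belonged to scarce members of this group. Adamts15 was at 1.76, 4.49 and 3.24 CPM with WM-2474 and 2.65, 1.09 and 2.1 CPM with WM-8014 at 96 h, which overlapped. At 240 h Adamts15 was at 4.66, 2.85 and 4.41 CPM, from 64 to 89 reads, against 0.706, 0.311 and 1.1 CPM, from 7 to 19 reads, which were far apart. It differed by -0.73 at 96 h (adjusted p = 0.211) and was 6.16-fold lower at 240 h (log2 -2.62, SE 0.458, adjusted p = 0.000602), a call that passed in each alternative run. The interaction of -1.89 did not pass (adjusted p = 0.0868), but did without WM-8014 96 h culture 6 (-2.18, 0.0441), WM-8014 240 h culture 7 (-2.48, 0.0342) or culture 6 (0.00854), in DESeq2 (-1.85, 0.0136) and with every library thinned (-2.18, 0.0441), range 0.00854 to 0.353.

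Adamts20, a versican-cutting protease needed for the spread of pigment cells in mouse skin, was at 1.58, 1.59 and 2.11 CPM with WM-2474 and 1.9, 0.75 and 1.62 CPM with WM-8014 at 96 h. At 240 h Adamts20 was at 2.09, 1.25 and 1.19 CPM against 0.504, 0.484 and 0.115 CPM, from 2 to 14 reads. The groups overlapped at 96 h and were apart at 240 h. Adamts20 differed by -0.39 at 96 h (adjusted p = 0.413) and was 3.96-fold lower at 240 h (log2 -1.98, SE 0.416, adjusted p = 0.000626). The interaction was -1.60 (adjusted p = 0.0637) and passed without WM-8014 96 h culture 6 (-1.90, 0.0192) or culture 6 (-2.46, 0.0346) and with no filter (0.0319), range 0.0192 to 0.357.

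The 2 members called with the largest p were Adamts4, an aggrecanase, and Adamts7, a protease of cartilage oligomeric matrix protein. Adamts4 was at 44.9 to 46.5 CPM with WM-2474 and 38 to 43.5 CPM with WM-8014 at 240 h (log2 -0.17, adjusted p = 0.0394). Adamts7 was at 17 to 19.9 CPM against 13.9 to 16.2 CPM (log2 -0.21, adjusted p = 0.0393). Neither passed at 96 h or in the interaction, and their 240 h calls are not among those followed over the alternatives. Exons of Adamts7 overlap 122 bases of Tbc1d2b on the opposite strand, and Tbc1d2b was higher with WM-8014 at 240 h (log2 0.17, adjusted p = 0.00514).

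Adamts12, the other protease of cartilage oligomeric matrix protein, was at 46.9, 49.8 and 51 CPM with WM-2474 and 52.2, 58.7 and 50.8 CPM with WM-8014 at 96 h. At 240 h Adamts12 was at 92.8, 99.6 and 104 CPM against 114, 116 and 110 CPM. The groups overlapped at 96 h and were narrowly apart at 240 h. It differed by 0.12 at 96 h (adjusted p = 0.133) and was 1.14-fold higher at 240 h (log2 0.20, SE 0.05, adjusted p = 0.00319), lost without culture 5 (0.14, adjusted p = 0.0733) and with every library thinned to the lowest depth (0.14, 0.101), range 0.00102 to 0.101.

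Adamts6 and Adamts10, a pair linked to fibrillin microfibrils, the scaffolds of elastic fibres, were lower at 240 h. Adamts6 was at 41.7, 33.7 and 35.1 CPM with WM-2474 and 31.2, 29.6 and 32.6 CPM with WM-8014 at 96 h. At 240 h Adamts6 was at 58.5, 59.8 and 57.7 CPM against 40.6, 44.6 and 46 CPM. The groups were apart at both times, by about 1 CPM at 96 h. Adamts6 was 1.17-fold lower at 96 h (log2 -0.22, SE 0.0683, adjusted p = 0.0216) and 1.33-fold lower at 240 h (log2 -0.41, SE 0.0611, adjusted p = 1.1e-05). The 96 h call was lost without the WM-2474 library of culture 5 (-0.15, adjusted p = 0.0965), the WM-8014 library of culture 5 (-0.22, 0.06) or 6 (-0.19, 0.092), culture 5 (-0.15, 0.156) or culture 6 (-0.23, 0.075), and with every library thinned (-0.24, 0.0739), range 0.00582 to 0.156. The interaction of -0.19 (adjusted p = 0.213) passed without WM-2474 96 h culture 5 (-0.27, 0.0421), range 0.0421 to 0.991.

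Adamts10 was at 78.3, 73.1 and 82.4 CPM with WM-2474 and 77.6, 75.8 and 71.5 CPM with WM-8014 at 96 h. At 240 h Adamts10 was at 117, 123 and 123 CPM with WM-2474 and 80.8, 79.7 and 93.5 CPM with WM-8014. The groups overlapped at 96 h, and at 240 h the WM-2474 libraries stood above the other 9. The difference was -0.06 at 96 h (95% interval -0.19 to 0.06, adjusted p = 0.467) and -0.51 at 240 h (1.43-fold lower, SE 0.0555, adjusted p = 4.51e-07). The interaction of -0.45 (SE 0.0805, adjusted p = 0.00109) and the 240 h call passed in each alternative run.

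Of the 5 ADAMTS-like genes, 1 was higher at 96 h, 3 were higher at 240 h and none was lower. These are 20% and 60%, where 22.8% and 42.6% of all genes passed (10.9% and 21.2% higher). Adamtsl5, whose protein binds fibrillin, was at 97.5, 93.3 and 98 CPM with WM-2474 and 137, 130 and 119 CPM with WM-8014 at 96 h. At 240 h Adamtsl5 was at 121, 116 and 114 CPM against 153, 147 and 166 CPM. The compounds were apart at both times and in the same measure. Adamtsl5 was 1.33-fold higher at 96 h (log2 0.42, SE 0.0509, adjusted p = 1.15e-05) and 1.33-fold higher at 240 h (log2 0.41, SE 0.0493, adjusted p = 1.18e-06). The interaction was -0.01 (95% interval -0.16 to 0.14), and both calls passed in each alternative run.

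Adamtsl4, known for its part in the fibres that hold the lens, was at 49.9, 57.7 and 50.9 CPM with WM-2474 and 64.2, 76 and 60.1 CPM with WM-8014 at 96 h. At 240 h Adamtsl4 was at 65.2, 64.1 and 53.8 CPM against 101, 106 and 88.8 CPM. The groups were apart at both times, and culture 7 was the lowest in both groups at 240 h. The difference was 0.34 at 96 h (SE 0.115, adjusted p = 0.0593) and passed with culture as a block (0.32, adjusted p = 7.37e-05), in DESeq2 (0.00417), with every library thinned (0.028), in a fit of the 96 h groups alone (0.0242), without WM-8014 96 h culture 7 (0.41, 0.0447), the WM-2474 240 h (0.0311) or WM-8014 240 h (0.0416) library of culture 7, and culture 6 (0.0339) or 7 (0.0153), range 7.37e-05 to 0.298. At 240 h Adamtsl4 was 1.62-fold higher (log2 0.70, SE 0.108, adjusted p = 0.000508), and the interaction of 0.35 did not pass (adjusted p = 0.213) unless every library was thinned (0.51, 0.00649) or culture was a block (0.37, 0.000721).

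Adamtsl3 was at 31.4, 33.3 and 29.5 CPM with WM-2474 and 35.9, 32.3 and 26.2 CPM with WM-8014 at 96 h, which overlapped. At 240 h Adamtsl3 was at 30.6, 26.5 and 28.2 CPM against 41.3, 40.8 and 37.7 CPM, which were apart. It differed by 0.02 at 96 h (95% interval -0.17 to 0.21, adjusted p = 0.912) and was 1.41-fold higher at 240 h (log2 0.49, SE 0.0868, adjusted p = 0.000221). The interaction of 0.47 (SE 0.126, adjusted p = 0.0223) was lost without WM-2474 96 h culture 6 (0.0543) or of both 6 and 7 (0.142), WM-2474 240 h culture 6 (0.0555) or 7 (0.0566), WM-8014 240 h culture 5 (0.0565) or 6 (0.0585), and culture 6 (0.257), and with every library thinned (0.0509), range 0.000639 to 0.257. Adamtsl1 (12.8 to 35.4 CPM) and Adamtsl2 (0.203 to 1.31 CPM) did not pass, and their 95% intervals at 240 h were -0.47 to 0.44 and -0.76 to 0.55.

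Summed per kilobase, the inhibitors differed most between the groups. TIMP genes summed to 893 ± 17.7 CPM per kilobase with WM-2474 and 1099 ± 47.2 with WM-8014 at 96 h, and to 1428 ± 20.2 and 2361 ± 52.8 at 240 h (mean ± SD, n = 3). MMP genes summed to 483 ± 24.4 and 546 ± 7.18 CPM per kilobase at 96 h and to 650 ± 3.88 and 684 ± 36.9 at 240 h. The inhibitor sum was the higher of the pair in all 4 groups, and its gap to the MMP sum was widest with WM-8014 at 240 h. ADAMTS genes summed to 225 ± 6.94 and 236 ± 2.61 CPM per kilobase at 96 h and 215 ± 8.37 and 249 ± 7.83 at 240 h, and ADAMTSL genes to 57.7 ± 0.445 and 73.6 ± 5.34, then 69.1 ± 3.08 and 95.3 ± 2.11. The abundant genes of each family, Timp2, Timp3 and Timp1, Mmp14, Adamts1, and Adamtsl5, weigh most in these sums, which carry no test.

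**Figure D5:**
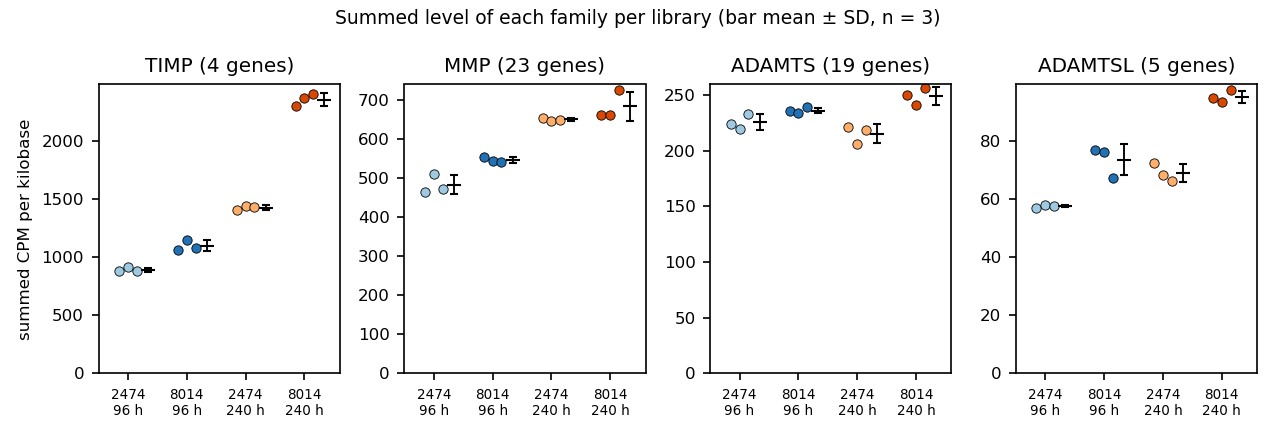
Summed CPM per kilobase of each family in every library, with the mean and SD of each group of 3. The TIMP sum rises from 893 to 2361 between the lowest and the highest group, and the MMP sum from 483 to 684.

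The family also changed with time alone. Between 96 and 240 h with WM-2474, 22 of 32 tested members passed, 18 higher and 4 lower, or 68.8% where 38.9% of all genes passed (19.8% higher and 19.1% lower). With WM-8014, 26 passed, 20 higher and 6 lower, or 81.2% where 49.7% of all genes passed (24.8% higher and 25% lower). Each of these comparisons uses the same libraries as the comparisons of compounds. Timp3 rose 2.3-fold over time with WM-2474 (log2 1.20, adjusted p = 7.38e-10) and 3.61-fold with WM-8014 (log2 1.85, adjusted p = 2.8e-12), and Timp2 rose 1.25-fold and 1.6-fold. Mmp17 rose 2.53-fold with WM-2474 (adjusted p = 1.64e-09) and 1.9-fold with WM-8014 (adjusted p = 6.01e-06), so at 240 h the WM-8014 libraries lay just above the WM-2474 level at 96 h. Adamts12 rose 2-fold and 2.1-fold, and Mmp14 1.41-fold and 1.25-fold. Mmp16, a membrane-type MMP, fell 1.87-fold with WM-2474 (adjusted p = 3.22e-06) and 1.92-fold with WM-8014 (adjusted p = 1.84e-06). Without the 96 h controls of cultures 6 and 7, the rises over time with WM-2474 of Mmp28 (0.37, adjusted p = 0.153) and Mmp9 (1.67, 0.152) did not pass, and the falls with WM-8014 of Adamts9 (-0.19, 0.0421) and Mmp13 (-1.67, 0.0314) did.

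Adamts5 and Adamts1 were the members whose levels fell over time with WM-2474 and not measurably with WM-8014. Adamts5 fell 1.53-fold with WM-2474 (log2 -0.61, adjusted p = 0.000352) and differed by -0.10 with WM-8014 (95% interval -0.30 to 0.09). Adamts1 fell 1.38-fold with WM-2474 (log2 -0.46, adjusted p = 0.000179) and differed by -0.08 with WM-8014 (-0.23 to 0.07). The test of these differences is the interaction given above for each gene, with the libraries on which it rests. Adamts10 rose 1.54-fold with WM-2474 (log2 0.62, adjusted p = 3.76e-08) and 1.13-fold with WM-8014 (0.18, adjusted p = 0.0172), the latter lost without the WM-8014 library of culture 7 at 96 h (0.0879) or 240 h (0.136) and without culture 7 (0.353), range 0.00503 to 0.353.

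Genes that act on or beside these proteases were read from 3 further lists, to be set against the 22.8% and 42.6% of all genes that passed at 96 and 240 h. All 10 ADAM proteases listed, membrane relatives that shed cell-surface proteins, were tested, with 5 higher and 1 lower at 96 h and 2 higher and 4 lower at 240 h, or 60% at each time (median log2 0.12 and 0.08). Adam15 rose from 180 ± 4.02 to 231 ± 4.02 CPM at 96 h and from 261 ± 6.25 to 355 ± 14.6 CPM at 240 h, with log2 differences of 0.36 and 0.44 (adjusted p = 1.05e-06 and 1.95e-09). Adam9 rose by 0.23 and 0.38 (adjusted p = 0.000386 and 2.29e-07), and Adam22, a relative without protease activity, fell by 0.59 and 1.18 on the log2 scale (adjusted p = 0.0429 and 0.000128) at group means of 2.58 to 5.41 CPM. Of 29 genes for activation, inhibition and clearance, 22 were tested, with 4 higher and 6 lower at 96 h and 7 higher and 6 lower at 240 h, or 45.5% and 59.1% (median -0.04 and -0.01). Lrp1, the receptor that takes up MMPs and TIMPs for degradation, rose by 0.25 and 0.26 (adjusted p = 0.000214 and 2.19e-05), from 1821 to 2159 CPM and from 2265 to 2718 CPM. Pcolce, which enhances procollagen C-proteinase, rose by 0.22 and 0.28 (adjusted p = 0.000337 and 4.99e-06), and Spock3, a testican, fell by 1.47 and 2.92 (adjusted p = 0.00341 and 2.59e-06) at group means of 0.202 to 1.78 CPM.

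Of 20 matrix substrates, 19 were tested, with 5 higher and 2 lower at 96 h and 4 higher and 3 lower at 240 h, or 36.8% at each time, which at 240 h is below the share of all genes (median 0.03 and -0.03). Thbs1, thrombospondin-1, differed by 0.03 at 96 h (adjusted p = 0.582) and rose by 0.48 at 240 h (adjusted p = 1.82e-09). Fbn1, a fibrillin of microfibrils, rose by 0.38 at 96 h (adjusted p = 2.46e-06) and differed by 0.08 at 240 h (adjusted p = 0.121). Fbn2, another fibrillin, had group means of 621 ± 87.7 CPM with WM-2474 and 335 ± 91.5 with WM-8014 at 240 h. Eln (236 ± 65.1 and 88.8 ± 46.2 CPM) and Vcan (1151 ± 122 and 872 ± 35.1 CPM) were also lower in the mean with WM-8014 at 240 h. Comp, the substrate of Adamts7 and Adamts12, rose by 0.89 and 1.77 (adjusted p = 0.00798 and 7.2e-06) at group means of 0.895 to 3.12 CPM.

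Of 10 fibroblast markers, all tested, 1 was higher and 1 lower with WM-8014 at 96 h, and 1 higher and 3 lower at 240 h. These are 20% and 40%, near the 22.8% and 42.6% of all genes. Col1a1 lay at 10746 to 20023 CPM and Vim at 3094 to 4269 CPM over the libraries. Group means at 240 h with WM-2474 and WM-8014 were 205 and 152 CPM for Pdgfra, 84.5 and 55.9 for Dcn, and 16 and 3.45 for Lum. They were 3668 and 3141 CPM for Col3a1, 1682 and 1606 for Thy1, and 86.5 and 76.3 for Twist1. The means were higher with WM-8014 for Col1a1 (19183 and 19659 CPM), Col1a2 (9504 and 9548), Pdgfrb (497 and 502) and Vim (3818 and 4209). Proliferation markers moved with the compound: 5 genes summed to 626 to 663 CPM with WM-2474 and 472 to 524 CPM with WM-8014 at 96 h, and to 421 to 451 against 171 to 198 CPM at 240 h. Markers of macrophages and other leukocytes, 7 genes, summed to 6.66 to 8.36 CPM against 9.48 to 11.2 CPM at 96 h and 3.76 to 6 against 9.58 to 9.99 CPM at 240 h. Of these, 3 could be tested, with 1 higher at 96 h and 2 higher at 240 h. Csf1r had group means of 2.24 CPM with WM-2474 and 5.42 with WM-8014 at 240 h, and Lyz2 of 0.759 and 2.01. Ptprc did not exceed 0.477, Adgre1 0.279 and Itgam 0.246 CPM, and each was at 0 in 3 or 4 libraries. Muscle markers summed to 19.9 to 24.1 against 31.2 to 34.2 CPM at 96 h and 28.2 to 34.8 against 81.8 to 106 CPM at 240 h, nearly all of it Des, with Myod1 at most 0.362 and Myog at most 0.225 CPM. Sums of cartilage and bone markers (Col2a1 at 45.8 to 161 CPM, Matn1 at 0 in 9 libraries) overlapped between the compounds at both times. The endothelial sums did so too. Of 4 genes tested in each list, 1 cartilage and bone marker was higher and 1 endothelial marker lower at each time. That is 25% of each list, where 22.8% and 42.6% of all genes passed at 96 and 240 h. Epithelial markers overlapped at 96 h and summed to 0.429 to 0.623 against 0.808 to 1.31 CPM at 240 h, with Epcam at 0 in 8 libraries. The part of any of these in the differences above was not tested.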

How the data were processed

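RNA was isolated from 12 cultures with a silica-column kit, and strand-keeping poly(A) libraries were made from it, per the labels' protocols. The authors deposited raw read counts per gene by Entrez identifier, for which the submitters' processing notes name featureCounts and mm10, together with a gene length in bases for each gene. Aligner, annotation, strand setting and versions were not given in the sources used, so reads of opposite-strand neighbours may be shared, and their values are given beside the genes, except 1 that is not reported here. Symbols came from a RefSeq gene table of GRCm38.p6, the coordinates of mm10, for 25275 of 27179 identifiers. Promoter windows came from RefSeq, and exon overlaps from the GENCODE annotation of that build.

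The count analysis used edgeR 4.0.16 in R 4.3.3: filterByExpr by group with a minimum of 10 reads at the median library size, TMM scaling, 4 group means fitted to all 12 libraries, and a two-sided, robust quasi-likelihood F test, adjusted over 14136 genes. Log2 fold changes use a prior count of 0.125. Each standard error is the log2 fold change divided by the root of its F statistic, and 95% intervals follow from it. The edgeR fit was tried on simulated counts for the comparison of compounds at 96 h only. At this depth, 3 reads are 0.0654 to 0.296 CPM before scaling, a limit of counting alone. Replicate pairs differed by more than sampling noise (chi-square per degree of freedom 2.1 to 7.13), so none was counted as a duplicate. Level across genes was CPM per kilobase of the deposited length.

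Same-numbered cultures deviated together from their group means at 96 h (correlations 0.141, 0.15 and 0.158, all above 0.1), so the numbers were taken to pair those libraries. The main fit leaves this pairing out, and the fit with culture as a block is given as an alternative to it. The pairing comes from the culture number in the labels. The genes described, the 3 related lists and the markers were chosen with earlier results of these data known. By rule, members passing in either comparison of compounds or in the interaction were described in full, the 24 with the smallest p of 26, together with Mmp2, Mmp3, Mmp9, Mmp13, Mmp14 and Timp1 to Timp3, and 3 genes of the smallest p from each list. Misp3, Ddx3y and Xist were named after their values were seen, as were single marker genes and the genes overlapping a member. There were 22 alternatives: a replicate block, DESeq2 size factors in edgeR, DESeq2 1.42.0, no filter, thinning all libraries to 10147466 reads, only the groups compared, each library or culture left out, and both libraries that stood apart left out.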

Additional observations from a re-analysis of the deposited data

Results flagged for a closer look

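For 9 genes the effect of WM-8014 at 240 h differed from that at 96 h by the interaction test of edgeR. The difference, as the 240 h effect minus the 96 h effect in log2, was 0.65 for Timp3 and 0.35 for Timp2. It was 0.38 for Adamts1, 0.51 for Adamts5, 0.47 for Adamtsl3, 0.99 for Mmp15 and 0.57 for Mmp28. It was -0.45 for Adamts10 and -2.35 for Mmp9. The calls of Timp2, Timp3 and Adamts10 passed in all alternatives run, and those of the other 6 did not. Mmp28 was lower with WM-8014 in 3 of 3 cultures at 96 h and higher in 3 of 3 at 240 h, and at 96 h its difference did not pass.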

How the results depend on the processing

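No member described changed its direction with a call under any of the 22 alternatives (DESeq2 gave no adjusted p for the interaction of Mmp9). Leaving aside the fit with 1 library in a group, 8 to 13 members passed at 96 h and 20 to 26 at 240 h. Over time, 20 to 24 passed with WM-2474 and 22 to 28 with WM-8014. All lay within 1.5 times the values reported, but the members tested ran from 29 to 48. DESeq2, run with no filter, was counted over all 51 members and all 27179 genes, also those with no reads. On that base 8.9% of all genes passed at 96 h, 18.6% at 240 h, and 16.5% and 22.2% over time with WM-2474 and WM-8014. In the other fits the share of all genes tested ran from 12.5 to 25.4% at 96 h and from 28.1 to 44.8% at 240 h. Over time that share ran from 25.7 to 41.1% with WM-2474 and from 32.8 to 51.2% with WM-8014. The interaction count, 9, moved further. It was 14 (9 higher, 5 lower) with culture as a replicate block, where 13% of all genes passed. With single libraries or cultures left out it was 5 to 11. The count of 5 came without culture 5 or 7, where 6.12% and 6.21% of all genes passed. The causes were not tested, though fewer libraries alone can end calls. Of the calls described, those that passed in every alternative were 4 of 10 at 96 h, 14 of 22 at 240 h, 3 of 9 for the interaction, 15 of 17 over time with WM-2474 and 15 of 20 with WM-8014. That tally leaves out the 240 h calls of Adamts4 and Adamts7. Same-numbered cultures at 240 h correlated at 0.0636, 0.243 and 0.0475, all positive but not all above 0.1. Different-numbered cultures of the 2 compounds at 240 h correlated at -0.182 to 0.0967, the highest being WM-2474 culture 5 with WM-8014 culture 7. By these 240 h values alone, a pairing of the 240 h libraries is neither shown nor excluded. Between 96 and 240 h, same-numbered cultures correlated at 0.0289 to 0.19, all positive, and different-numbered ones at -0.145 to 0.0339. The block, which spans both times, gave 25 members at 240 h, where 44.8% of all genes passed. Few reads widened the intervals of Mmp9, Mmp13, Adamts3, Adamts15, Adamts20 and Adamtsl2, for which small differences were not detectable.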
